A study of Mus musculus with 2 samples.

Results

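Within cultures of bone marrow-derived monocytes (BMDMs) that were on the way to osteoclasts (OCs), a population of macrophages marked by Hmox1, Ccl6, Gas6 and Fabp5 was examined. Its cells, called members from here on, were the 10% of eligible cells with the highest score in each library. The score was the mean of the percentile ranks, within the library, of the share of a cell's UMIs (unique molecular identifiers, 1 per captured mRNA molecule) that came from each of these 4 genes. A barcode was eligible with at least 500 detected genes, at most 10% mitochondrial UMIs, at least 5000 UMIs and fewer than 3 UMIs over the OC genes Ctsk, Mmp9 and Dcstamp. This gave 485 members of 4848 eligible cells and 6455 barcodes in the control library, and 505 members of 5054 eligible cells and 5865 barcodes in the mutant library. The other eligible cells, 4363 and 4549, are called the rest. Because the members were chosen by these measured values, every level of a gene in members against the rest below is a description of the chosen cells.

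The cells were murine BMDMs grown with M-CSF at 50 ng/ml and RANKL at 100 ng/ml, and the study's methods place their capture at 24 h after RANKL. The control library carries only the word control as its genotype, so whether those cells held the Cre or floxed alleles was not given. The mutant library was labelled LysM-Cre;Arid1afl/fl. LysM-Cre drives the recombinase from the Lyz2 locus, which is active across myeloid cells, and Arid1a encodes a DNA-binding subunit of the BAF remodeler of chromatin. The study's methods take bone marrow for culture from mice of 4 to 6 weeks and do not give the number or sex of the animals behind these libraries, and nothing says that more than 1 culture stood behind a library. With 1 library per genotype there was no replicate check. All intervals below are 95% intervals for counting error only, and cells vary by more than counting, so they describe these libraries and not the genotypes.

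Hmox1 encodes heme oxygenase 1, which breaks heme into biliverdin, iron and carbon monoxide and is a classic target of the oxidant-sensing factor NRF2 and of its repressor BACH1. Fabp5 and Fabp4 encode small cytosolic proteins that carry fatty acids, and both are known from lipid-laden macrophages. Gas6 is a secreted bridge between dying cells and the receptors Axl, Mertk and Tyro3, and Ccl6 is a CC chemokine of myeloid cells. Macrophages that engulf cells or lipid take up heme, iron, cholesterol and fatty acids together, and store, oxidize or export them.

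The libraries held 164004706 control and 131800059 mutant UMIs. Arid1a, the targeted gene, was at 50.4 CPM (UMIs of the gene per 1000000 UMIs) in control members and 17.2 CPM in mutant members, against 52.1 and 20.6 CPM in the rest. The reads come from the 3′ end of a transcript, so an mRNA without the floxed exons can still be counted. The OC gene filter took out 1253 control cells (20.5% of those that passed the other filters) and 258 mutant cells (4.86%), so the eligible cells are a different fraction of each culture. The libraries had 8 barcodes in common, none of which marked a member. Members were somewhat deeper than the rest, with medians of 25324 against 23179 UMIs in the control library and 26166 against 21828 in the mutant library. When every cell was thinned to 5000 UMIs, members had 1804 genes at the median against 1829 in the control library, and 1867 against 1897 in the mutant library. Their median mitochondrial share was 1.83% against 2.02%, and 1.23% against 1.30%. Likely doublets, which the selection did not remove, made up 3.92% of control members (2.37% to 6.05%) against 4.56% of the rest, and 7.13% of mutant members (5.04% to 9.73%) against 4.73%.

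The 4 genes that chose the members differed in how far they set members apart. Hmox1 (chr8:75820241-75827217, plus strand of GRCm39, as are all positions) was counted at 878 CPM in control members and 176 CPM in their rest, and at 558 and 141 CPM in the mutant library. Ccl6 (chr11:83478708-83483913, minus strand) was at 362 and 41.3 CPM in the control library and at 270 and 38.0 CPM in the mutant library. Members therefore held 51.4% and 48.2% of all Ccl6 UMIs of the eligible cells while holding 10.8% and 11.6% of all UMIs. Gas6 (chr8:13515371-13544824, minus strand) stood at 69.2 against 7.83 CPM and at 48.2 against 5.10 CPM. Fabp5 (chr3:10077602-10081674, plus strand) was the most abundant of the 4, at 1897 against 639 CPM and at 2991 against 722 CPM. Ccl6 overlaps E230016K23Rik and Gas6 overlaps Tmem255b on the other strand, and the use of strand in counting was not stated, so these 2 levels are less certain.

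Few members were high for all 4 genes at once. Every member was above its library's median for at least 3 of them, and 62.9% of control members and 45% of mutant members were above it for all 4. Counting instead the genes for which a cell lay in the top 10% of its library, 7.22% of control members and 4.36% of mutant members reached it for all 4, and 38.4% and 40.2% for exactly 2. Ranks discard how far levels lie apart, so a gap at the cutoff cannot be read from the score. Cells without a UMI of a gene share a rank. Gas6 had a UMI in 79.2% of control members and 14.6% of the rest, and in 62.8% and 8.38% in the mutant library. For Ccl6 these shares were 94.6% and 37.0%, and 90.1% and 29.2%. Being above the median for Gas6 or Ccl6 therefore meant having any UMI of it. The last member scored 73.6051 and the first cell left out 73.5767 in the control library, and 72.2992 and 72.2893 in the mutant library. Among the 20 control cells on each side, the summed Hmox1 level was 807 CPM inside and 621 CPM outside, that of Fabp5 1463 and 1001 CPM, and that of Ccl6 192 and 364 CPM. Among the mutant cells the same levels were 375 and 318 CPM for Hmox1, 1548 and 1885 CPM for Fabp5, and 243 and 68.5 CPM for Ccl6.

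In the control library Hmox1, Ccl6 and Gas6 went together more closely than any of them went with Fabp5. In the mutant library this held for Hmox1 with Ccl6 and with Gas6, while Ccl6 with Gas6 was about as close as Gas6 with Fabp5. Over the 4848 eligible control cells Spearman's rho was 0.33 for Hmox1 with Ccl6, 0.33 for Hmox1 with Gas6 and 0.24 for Ccl6 with Gas6, but 0.08 for Hmox1 or Ccl6 with Fabp5 and 0.11 for Gas6 with Fabp5. Over the 5054 mutant cells the first 3 were 0.25, 0.25 and 0.16, and those with Fabp5 were 0.14, 0.10 and 0.16. These cells share 1 library and its depth range, so the values are descriptions. Each gene was then left out of the score and measured in the top 10% by the other 3, which shared between 73.0% and 83.0% of the members. Gas6 was still 2.31 (2.17 to 2.45) higher on the log2 scale in those cells of the control library and 2.07 (1.90 to 2.24) higher in those of the mutant library. The log2 ratio was 2.16 and 1.81 for Ccl6 and 1.76 and 1.49 for Hmox1. Fabp5 gave the smallest values, 0.92 (0.90 to 0.94) and 1.37 (1.35 to 1.39).

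**Figure D1:**
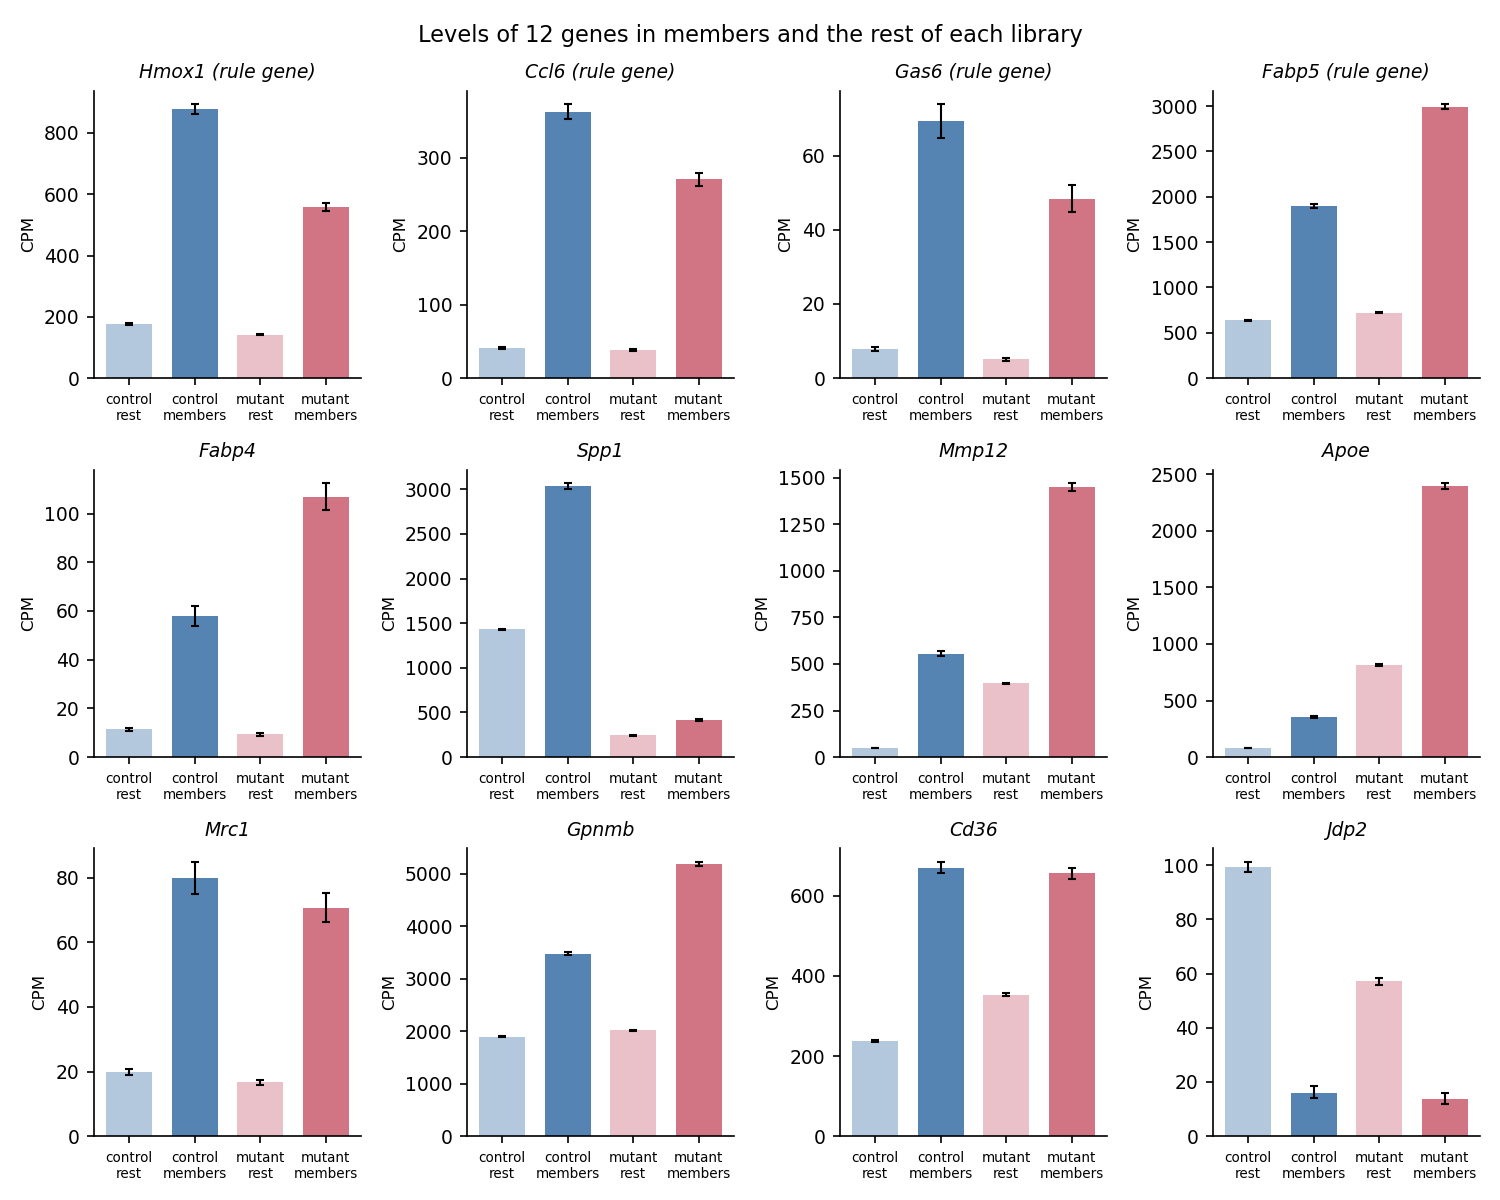
Levels of 12 genes in CPM (vertical axes, starting at 0 and scaled per gene) in the rest (pale bars) and the members (dark bars) of the control library (blue) and the mutant library (red). Bars are summed UMIs per 1000000 with 95% Poisson intervals, the first 4 genes chose the members, and Fabp4 stood at 58.0 CPM in control members and 107 CPM in mutant members against 11.4 and 9.31 CPM in the rest.

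The remaining markers of the population, Fabp4 and Spp1, took no part in the score. Fabp4 (chr3:10268785-10273737, minus strand) was counted at 58.0 CPM (54.0 to 62.2) in control members and 11.4 CPM in their rest, and at 107 CPM (102 to 112) and 9.31 CPM in the mutant library. Its log2 ratio of members over rest was 2.34 (2.21 to 2.47) in the control and 3.52 (3.41 to 3.64) in the mutant library, and with Fabp5 left out of the score it was 1.73 and 2.65. Spp1 (chr5:104582165-104589235, plus strand), which encodes the matrix protein osteopontin, was at 3038 CPM in control members against 1429 CPM, and at 416 CPM in mutant members against 244 CPM. Both genes were thus higher in members of either library, but the rest of the control library carried more Spp1 than the members of the mutant library.

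Fabp4 came from a minority of the members. A Fabp4 UMI was found in 214 of the 485 control members and 197 of the 505 mutant members, and the 10% of members with the most held 63.2% and 72.0% of their Fabp4 UMIs. At 5000 UMIs per cell the share of cells with a UMI was 17.3% (14.1% to 21.0%) of control members and 4.29% of the rest, and 22.2% (18.6% to 26.1%) of mutant members and 2.77% of the rest. Neutrophil-like cells, which should lack the gene, had none in 16 control cells, for which the exact upper bound is 20.6%, and 1.35% in 74 mutant cells, at median depths of 8069.5 and 10815.5 UMIs before thinning. Fabp5 helped to choose the members, so its level in them cannot bear out the label of a Fabp-high population. At the same depth it had a UMI in 97.5% of control members and 73.5% of the rest. In the mutant library these shares were 97.0% and 63.7%. For Fabp4, which the score did not use, the label holds in part of the members. Adipocyte markers (Adipoq, Plin1, Cidec and Lep) had no UMI in members or rest of either library.

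Macrophage markers were present throughout. The summed level of 9 such genes was 24177 CPM in control members against 12454 CPM, and 11594 CPM in mutant members against 7193 CPM, most of it from Lyz2 (lysozyme). Neutrophil markers went the other way, at 47.6 CPM in control members against 357 CPM and at 344 CPM in mutant members against 2224 CPM, summed over 7 genes that all had UMIs in each group. Without the neutrophil-like cells the direction differed by gene and library. S100a8 was then at 42.2 against 12.1 CPM in the control library and 54.5 against 34.4 CPM in the mutant library, higher in members of both. S100a9 was at 1.74 against 1.09 CPM in the control library but at 4.97 against 12.6 CPM in the mutant library, lower in members. By a gate of at least 2% of UMIs in S100a8, S100a9, Camp and Ngp, 0 of 485 control members and 1 of 505 mutant members were neutrophil-like, against 16 and 71 cells of the rest. The 1 mutant member held 1914 of the 2682 S100a8 UMIs of mutant members and 1662 of their 1732 S100a9 UMIs. Monocyte markers (4 genes, all detected) summed to 20.3 and 122 CPM in members against 41.2 and 304 CPM. Stromal, dendritic, B cell, T and NK cell, mast cell, eosinophil and erythroid markers each summed to under 1 CPM in members of either library. Of the endothelial markers (Pecam1, Cdh5 and Kdr), all 3 had UMIs and summed to 10.51 and 10.2 CPM in members against 6.31 and 11.9 CPM. The megakaryocyte markers summed to 2.42 CPM in control members, all from 1 of the 3 genes, and to 0 in mutant members.

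Beyond the genes of the rule, Mmp12, Apoe and Mrc1 were among the genes with the largest ratios in both libraries. In the control library 93 of 5033 genes with at least 20 CPM (1.85%) were at least 2-fold higher in members and 47 (0.934%) at least 2-fold lower. In the mutant library these were 41 (0.773%) and 92 (1.73%) of 5305 genes. The median log2 ratio over all these genes was -0.10 and -0.08. With totals that excluded mitochondrial and ribosomal protein genes, the control counts became 76 higher and 77 lower, so higher genes made up 49.7% of the calls in place of 66.4%. Among 4806 genes with that level in both libraries, 23 were 2-fold higher in both, which is 25% of the control list and 82.1% of the mutant list. For genes 2-fold lower the 24 shared were 66.7% and 33.8%.

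Mmp12, the macrophage metalloelastase, was at 554 CPM in control members and 49.3 CPM in their rest, and at 1451 and 396 CPM in the mutant library. Among genes with 20 CPM outside the rule it had the largest ratio of the control library, with a log2 of 3.49 (3.44 to 3.54), and the third largest of the mutant library, 1.87 (1.85 to 1.90). With Fabp5 left out of the score these became 2.68 and 1.73. Mmp12 overlaps Mmp1b on the other strand. Apoe, the lipid-binding apolipoprotein by which macrophages pass on cholesterol, was at 356 against 79.2 CPM and at 2396 against 814 CPM. Mrc1, the mannose receptor, was alike in both libraries, at 79.9 against 19.8 CPM and 70.7 against 16.6 CPM. It was below 20 CPM in the rest of both and passed the filter through the members. Marco, a class A scavenger receptor, was at 142 against 36.6 CPM and 114 against 52.6 CPM, and 15.4% and 16.8% of the members' Marco UMIs lay in a single cell of each library.

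The other leading genes of the control library, by log2 ratio, were Kctd12 (1.86), the semaphorin and VEGF co-receptor Nrp1 (1.80), the glutathione transferases Mgst1 (1.79) and Gsta3 (1.77), the lysosomal peptide and histidine transporter Slc15a3 (1.77) and the inhibitory receptor Cd200r1 (1.74). All of these were also higher in mutant members, from 0.71 for Nrp1 to 1.56 for Mgst1. The leading genes of the mutant library further held Fabp7 (1.49), a relative of Fabp4 and Fabp5, the secreted protein Wfdc17 (1.47), the selenium carrier Selenop (1.43), Bcl2a1b (1.39) and the lysosomal glycoprotein Gpnmb (1.36). Their control ratios were 1.73, 1.62, 1.72, 3.39 and 0.88. Bcl2a1b, below 20 CPM in the control library, has near-identical copies and Selenop overlaps Ccdc152, so both are uncertain. Among genes lower in members, Jdp2, an AP-1 family factor known from osteoclast differentiation, was at 16 against 99.3 CPM and 13.7 against 57.1 CPM. Pgf, placental growth factor, was at 4.99 against 37.8 CPM and 7.57 against 53.0 CPM, with 26 of the 66 Pgf UMIs of control members in a single cell. Its control log2 ratio was -2.92, and -4.02 with likely doublets removed. Vegfc, a lymphatic growth factor, was at 4.08 against 26.8 CPM in the control and 1.63 against 7.68 CPM in the mutant library. Lower ratios than these were found for the neutrophil genes S100a9 and Ngp in both libraries and Camp and Lcn2 in the mutant library. With neutrophil-like cells left out of both groups, the S100a9 ratio of the control library was 0.68 (-0.03 to 1.33) in place of -6.43, on 23 UMIs in members. In the mutant library the S100a9 ratio was still below 0 without them, at -1.34 (-1.71 to -0.99) in place of -2.95.

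**Figure D2:**
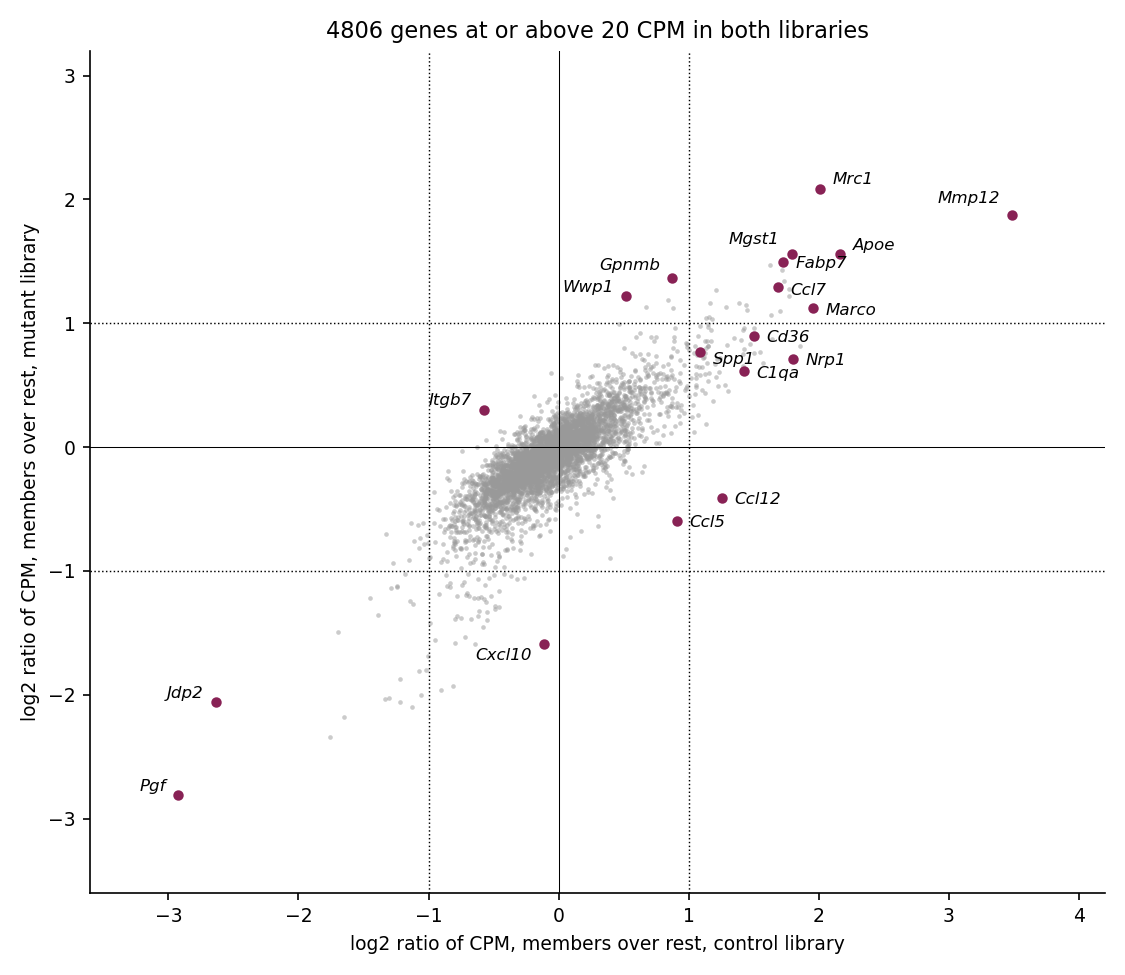
Log2 ratio of CPM in members over the rest in the control library (horizontal axis) and the mutant library (vertical axis) for 4806 genes with at least 20 CPM in both, with dotted lines at a 2-fold ratio. Mmp12, Apoe and Mrc1 lie at the upper right, Jdp2 and Pgf at the lower left, Ccl12 and Ccl5 at the lower right, and S100a9 and Ngp fall outside the axes.

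Genes of lipid handling were mostly higher in members. Of 32 listed genes 21 had at least 20 CPM in the control library and 22 in the mutant library, and the interval lay above 0 for 16 and 15 of them, against 26.8% and 24.3% of all genes tested. The median log2 ratio was 0.45 and 0.32, and 3 and 2 genes were at least 2-fold higher with none 2-fold lower. Fabp4, among the 2 of the mutant library, was at 9.31 CPM in the rest and passed 20 CPM only through the members. The uptake receptor Cd36 was at 670 CPM in control members against 237 CPM and at 656 CPM in mutant members against 353 CPM. Msr1, a scavenger receptor for modified lipoprotein, was at 374 against 200 CPM and 470 against 376 CPM. Genes that free cholesterol from its esters were also higher. Lipa, the lysosomal acid lipase, was at 802 against 444 CPM and 1174 against 851 CPM. Nceh1, a neutral cholesterol ester hydrolase, was at 150 against 74.5 CPM and 197 against 114 CPM. Soat1, which forms the esters, was at 212 against 141 CPM and 305 against 183 CPM, and the lipid droplet coat gene Plin2 at 472 against 306 CPM and 626 against 428 CPM. Acsl1, which activates long-chain fatty acids for metabolism, differed from these genes, with a log2 ratio of -0.52 (-0.62 to -0.42) and -0.69 (-0.81 to -0.56). The lipoprotein lipase gene Lpl was 0.53 (0.51 to 0.56) higher in control members and 0.08 (0.04 to 0.12) in mutant members. The cholesterol exporter Abca1, below 20 CPM in the control library, had ratios of 1.14 and 0.08.

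Most regulators of these genes were scarce. Of 12 listed, 2 in the control library and 3 in the mutant library had at least 20 CPM. Their median log2 ratios were 0.37 and 0.13, with a range of -0.27 to 0.20 in the mutant library. Pparg, the receptor that activates Fabp4 in fat cells and macrophages, was at 6.43 CPM in control members against 10.4 CPM and at 8.06 CPM in mutant members against 11.8 CPM. Its partner Rxra was at 12.2 against 5.0 CPM and 15.1 against 4.0 CPM, and Cebpa, a myeloid and adipocyte factor, at 17.1 against 5.88 CPM and 20.7 against 6.43 CPM. Rxra and Cebpa were thus higher and Pparg lower in members of both libraries, all at low levels. Of the 19 genes of cholesterol synthesis, 5 and 10 passed 20 CPM, with median log2 ratios of 0.48 and 0.11, and none differed 2-fold. Fdps, which makes farnesyl diphosphate, had ratios of 0.86 and 0.11. Insig1, which retains the pathway's activator in the endoplasmic reticulum, had 1.10 in the control library, where it was below 20 CPM, and 0.59 in the mutant library.

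Targets of NRF2, the group to which Hmox1 itself belongs, were higher in members. Without Hmox1, 17 of the 20 listed genes had 20 CPM in the control library and 18 in the mutant library, and the interval lay above 0 for 16 and 14 of them, where 26.8% and 24.3% of all genes had such an interval. The medians were 0.55 and 0.35, and 6 and 3 genes were at least 2-fold higher. Prdx1, an abundant peroxidase, was at 8660 CPM in control members against 3905 CPM and at 7441 CPM in mutant members against 4229 CPM. Gclm, which regulates the first step of glutathione synthesis, was at 696 against 321 CPM and 683 against 412 CPM. Catalase (Cat) was at 283 against 127 CPM and 248 against 120 CPM, and Gstm1, a glutathione transferase, at 129 against 58.8 CPM and 108 against 52.2 CPM. Slc48a1, which carries heme out of the phagolysosome, was at 216 against 105 CPM and 149 against 88.0 CPM. Genes of the pentose phosphate branch stood apart with small ratios, at 0.07 and -0.09 for Tkt and 0.12 and 0.03 for Taldo1. Txn1, thioredoxin, was lower in members of both libraries, by log2 ratios of -0.48 and -0.47.

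Because these targets were higher in members, their promoters were searched for the core of the antioxidant response element, TGACNNNGC, on both strands of a window from 250 bases before to 50 after the start site, with sequences from RefSeq on GRCm38.p6. This look at NRF2 targets was added after their levels had been seen. The list was made of known NRF2 targets, so a share above that of all windows could be foreseen and does not describe the members. The motif was in 8 of the 23 windows (34.8%) found for 17 of the 21 genes, with Hmox1 counted among the 21 but without a window, and in 4071 of all 32851 windows (12.4%). In the lipid handling list with Fabp5 it was in 2 of 31 windows (6.45%), those of Lrp1 and Soat1. The windows of Ccl6 and Gas6 did not hold these letters. The PPAR element, a direct repeat spaced by a single base, was in 13 of all windows (0.0396%) and in none of these lists. Of the 8 genes with the core (the others are Me1, Pgd and Srxn1), 5 are shown. In these the motif and the flanks printed lay upstream of the start site, in a window with a single exact match in GRCm39. This way of choosing was set after their levels had been seen. The motif is in capitals as its reverse complement, 5′ to 3′ on the gene's strand:
Gclm: gctcccgggcGCACCGTCAactctcacga
Prdx1: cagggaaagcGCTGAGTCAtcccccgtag
Mgst1: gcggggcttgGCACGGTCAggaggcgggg
Txnrd1: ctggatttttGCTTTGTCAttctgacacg
G6pdx: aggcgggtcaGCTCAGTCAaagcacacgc

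By exact match these lie in GRCm39 at chr3:122039062-122039090, chr4:116542653-116542681, chr6:138117459-138117487 and chr10:82694938-82694966 on the plus strand, and at chrX:73472525-73472553 on the minus strand for G6pdx. The motif starts 134, 133, 56, 92 and 57 bases upstream of the start site of its RefSeq window, in that order, and a gene can have more than 1 such window. Of these genes Mgst1, Prdx1 and Gclm had log2 ratios above 1 in control members, while Txnrd1 (0.16 and 0.19) and G6pdx (0.27 and 0.21) had small ones in both libraries. A match of letters is a description and says nothing about binding in these cells.

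The regulators of the element had smaller ratios. Nfe2l2, the gene of NRF2, was 0.42 (0.35 to 0.49) higher in control members and 0.31 (0.25 to 0.38) in mutant members, and its small partner Mafg 0.32 and 0.38. Keap1, which marks NRF2 for degradation, had 0.00 and -0.11, and Bach1 -0.02 and -0.12. Of the genes of heme and iron, 10 and 11 passed 20 CPM with medians of 0.47 and 0.32. The ferritin heavy chain gene Fth1 was at 66798 CPM in control members against 36648 CPM and at 81476 CPM in mutant members against 52912 CPM. Blvrb, a biliverdin reductase, was at 844 against 546 CPM and 805 against 589 CPM. Slc40a1, ferroportin and the iron exporter, was below 20 CPM overall but was at 20.3 CPM in control members against 1.68 CPM and 33.7 CPM in mutant members against 5.72 CPM. Tfrc, the transferrin receptor, was lower in members of both libraries, with ratios of -0.32 and -0.34.

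Lysosomal genes and the genes that go with Trem2 in lipid-associated macrophages were mostly higher in members of both libraries. Of 20 lysosomal genes with 20 CPM the interval lay above 0 for 19 in the control library and 18 in the mutant library, against 26.8% and 24.3% of all genes, with medians of 0.58 and 0.48. The other 2 genes of the mutant library had intervals below 0, with a lowest ratio of -0.34 for Mitf, a factor of lysosomal and osteoclast genes. Psap, the precursor of the saposins that help degrade sphingolipids, was at 2112 against 863 CPM and 3245 against 1483 CPM, and the aminopeptidase cathepsin gene Ctsh at 84.4 against 37.7 CPM and 83.5 against 37.3 CPM. Of the Trem2-associated genes 14 were measured in each library, with medians of 0.50 and 0.49. Trem2 itself, a receptor for lipids, was at 697 against 429 CPM and 811 against 583 CPM. Cathepsin D (Ctsd) was at 4495 against 2054 CPM and 8769 against 5024 CPM. Gpnmb was at 3473 against 1893 CPM and 5180 against 2016 CPM, and its ratio was 1.36 (1.35 to 1.37) in the mutant library against 0.88 (0.86 to 0.89) in the control library. Cd63 and Ctsz, the other genes of this list with a larger ratio in the mutant library, gave 0.66 against 0.42 and 0.48 against 0.26. Itgax (CD11c), below 20 CPM, was at 7.11 against 0.767 CPM and 13.3 against 3.47 CPM.

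Of the receptors of Gas6, Axl and Tyro3 were scarce and Mertk was higher in members. Axl was at 0.378 CPM in control members and 1.77 CPM in mutant members, and Tyro3 had no UMI in control members and 0.0707 CPM in mutant members. Mertk, which serves in the uptake of dying cells, was at 8.09 CPM in control members against 1.09 CPM and 9.48 CPM in mutant members against 2.55 CPM, with a UMI in 17.7% and 21.0% of members and 2.61% and 5.36% of the rest. The bridging protein gene Mfge8 was at 26.6 against 8.67 CPM and 27.7 against 6.1 CPM. The 3 C1q chains, which coat dying cells for uptake, were higher in members of both libraries, with smaller ratios in the mutant library. C1qa was at 571 against 213 CPM and 179 against 117 CPM, a log2 ratio of 1.42 (1.39 to 1.46) and 0.61 (0.55 to 0.67).

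Chemokines were mostly higher in control members and divided in mutant members. Of 11 genes with 20 CPM, 5 were at least 2-fold higher in control members and none 2-fold lower, while 2 were higher and 1 lower in mutant members. The medians were 0.91 and 0.24. Ccl7, which draws monocytes, was at 657 against 204 CPM and 197 against 80.1 CPM. Ccl4 was at 154 against 47.3 CPM and 271 against 127 CPM. These were at least 2-fold higher in both libraries. Ccl2 was at 1548 against 761 CPM in the control library but 1100 against 932 CPM in the mutant library, and Pf4, platelet factor 4, at 1651 against 617 CPM but 1199 against 760 CPM. Cxcl10, an interferon-induced chemokine, was at 145 against 156 CPM in the control library and 126 against 379 CPM in the mutant library.

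Programs of activation and stress gave mixed or small ratios. The inflammatory list had 3 and 4 genes with 20 CPM and medians of -0.18 and -0.08, and the alternative activation list 2 and 4 genes with medians of 1.87 and 0.36. The 2 control genes of the latter, Mrc1 and Cd200r1, were at 19.8 and 16.5 CPM in the rest. They passed 20 CPM only through the members, so the filter favoured high ratios there. Mrc1, at 16.6 CPM in the mutant rest, also entered the alternative activation list of that library in this way. The mutant median of that list was -0.50 at 50 CPM and 1.33 without neutrophil-like and stromal-like cells. Arg1, arginase 1, was at 25.2 CPM in control members against 6.5 CPM, but at 32.5 CPM in mutant members against 50.3 CPM. Chil3, a chitinase-like gene, was at 3.70 against 11.1 CPM and 13.4 against 67.9 CPM. The integrated stress response list gave medians of -0.21 and -0.04, heat shock -0.45 and -0.43, and hypoxia and glycolysis -0.07 and -0.25. Atf3, an early stress factor, was the exception in its list at 91.2 against 34.1 CPM and 102 against 60.6 CPM. Of the factors of macrophage identity, Maf had ratios of 1.63 and 1.07 and Irf8 1.38 and 1.16. Cx3cr1, the fractalkine receptor, was at 12.3 against 33.6 CPM and 95.9 against 224 CPM.

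OC genes outside the filter were lower or little different. Of 7 measured genes, Jdp2 was the one with a 2-fold difference, and the medians were -0.43 and -0.34. Nfatc1, the master regulator of osteoclast differentiation, was at 16.2 CPM in control members against 29.3 CPM and 23.4 CPM in mutant members against 27.9 CPM. Tnfrsf11a, the RANKL receptor RANK, was at 47.9 against 64.5 CPM and 58.0 against 92.2 CPM. Atp6v0d2, a proton pump subunit of osteoclasts and macrophages, went against these genes. It was at 23.1 CPM in control members against 3.91 CPM and at 44.8 CPM in mutant members against 3.58 CPM, log2 ratios of 2.57 (2.35 to 2.78) and 3.65 (3.46 to 3.83). The filter on Ctsk, Mmp9 and Dcstamp applied to members and rest alike.

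Genes of cell division were lower in members than in the rest. All 12 cycling genes had intervals below 0 in both libraries, against 48.1% and 44.5% of all genes tested, with medians of -0.77 and -1.48, and 3 and 10 of them were at least 2-fold lower. Ube2c, a ubiquitin-conjugating enzyme of mitosis, was at 109 against 270 CPM and 71.5 against 292 CPM. With every cell thinned to 5000 UMIs, 149 of 485 control members (30.7%, 26.6% to 35.0%) and 95 of 505 mutant members (18.8%, 15.5% to 22.5%) had 3 or more UMIs in the mitotic set of Mki67, Top2a, Aurka and Cdk1. In the rest the shares were 39.4% and 34.9%, so the differences were -8.70 points (-13.0 to -4.15) and -16.1 points (-19.7 to -12.1). S phase genes differed less, with medians of -0.22 and -0.25. The marks of the population held among cycling and other cells alike: in the mutant library the log2 ratio of Fabp4 was 3.19 in cycling and 3.45 in other cells, and in the control library 1.95 and 2.45.

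**Figure D3:**
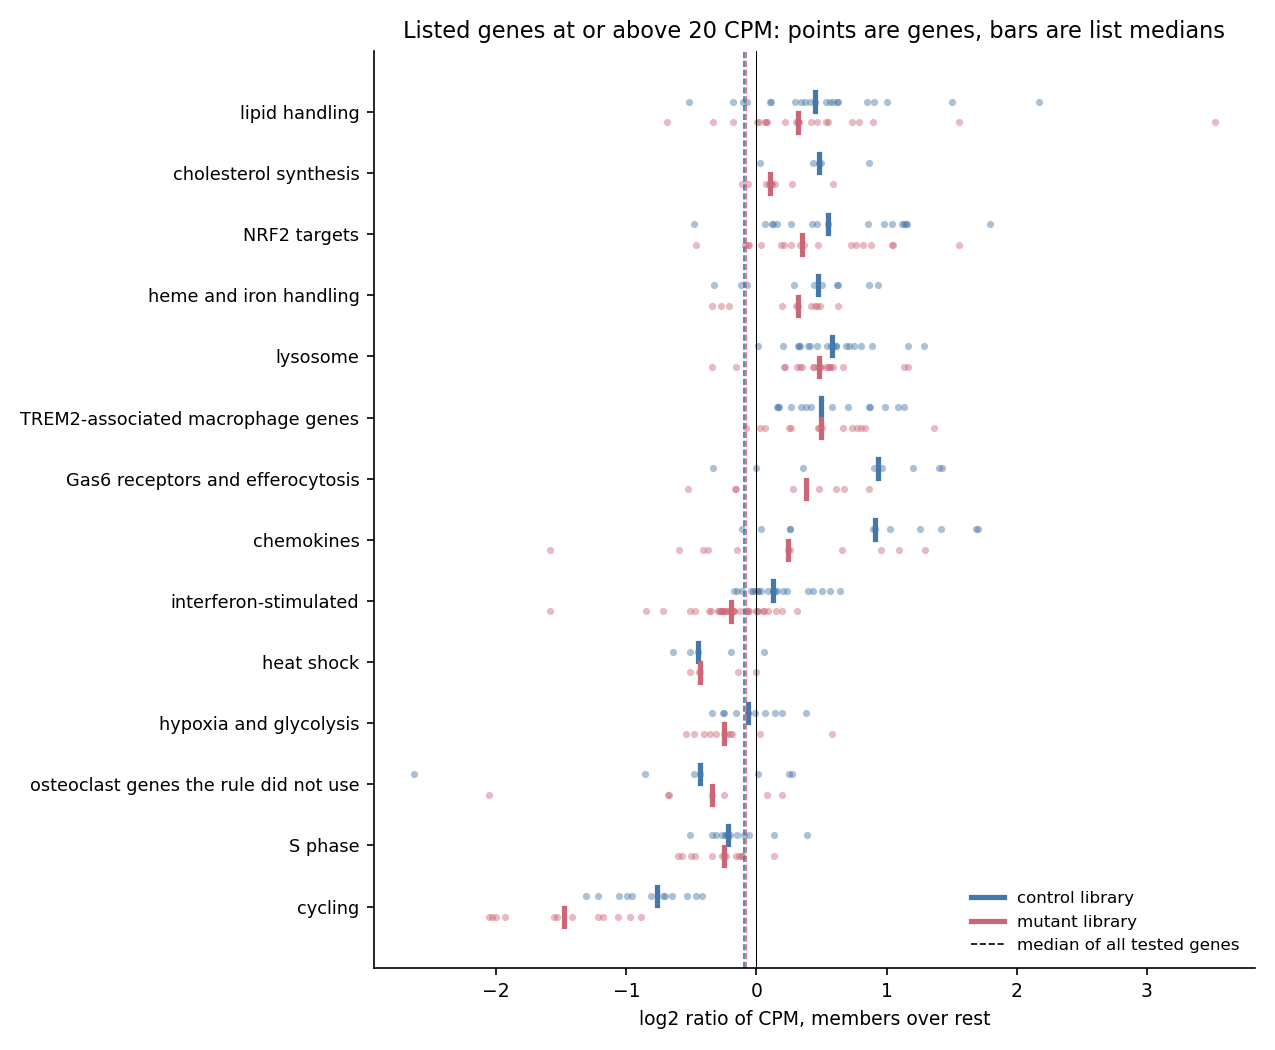
Log2 ratio of CPM in members over the rest for genes of 14 lists, with the control library in blue and the mutant library in red. Points are genes with at least 20 CPM, bars are list medians and dashed lines are the medians over all tested genes at -0.10 and -0.08, and the cycling list lies lowest with medians of -0.77 and -1.48.

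The genes that the score did not use were then followed across its whole range, in 10 bins of equal size. Fabp4 of the control library was at 2.08 CPM in bin 1, the lowest, 11.9 CPM in bin 5, 23.1 CPM in bin 9 and 58.1 CPM in bin 10. The mutant library ran from 0.431 to 3.73, 36.1 and 107 CPM over the same bins, so both had their highest level of these in the last. Mmp12 of the control library was at 13.2, 34.0, 131 and 551 CPM, and that of the mutant library at 237, 334, 728 and 1451 CPM. Prdx1 was at 2292, 3543, 6134 and 8638 CPM and at 2966, 3845, 5942 and 7441 CPM. Jdp2 was lower in the upper bins, from 109 CPM in bin 5 to 29.2 and 16.1 CPM in the control library and from 76.5 to 21.5 and 13.7 CPM in the mutant library.

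**Figure D4:**
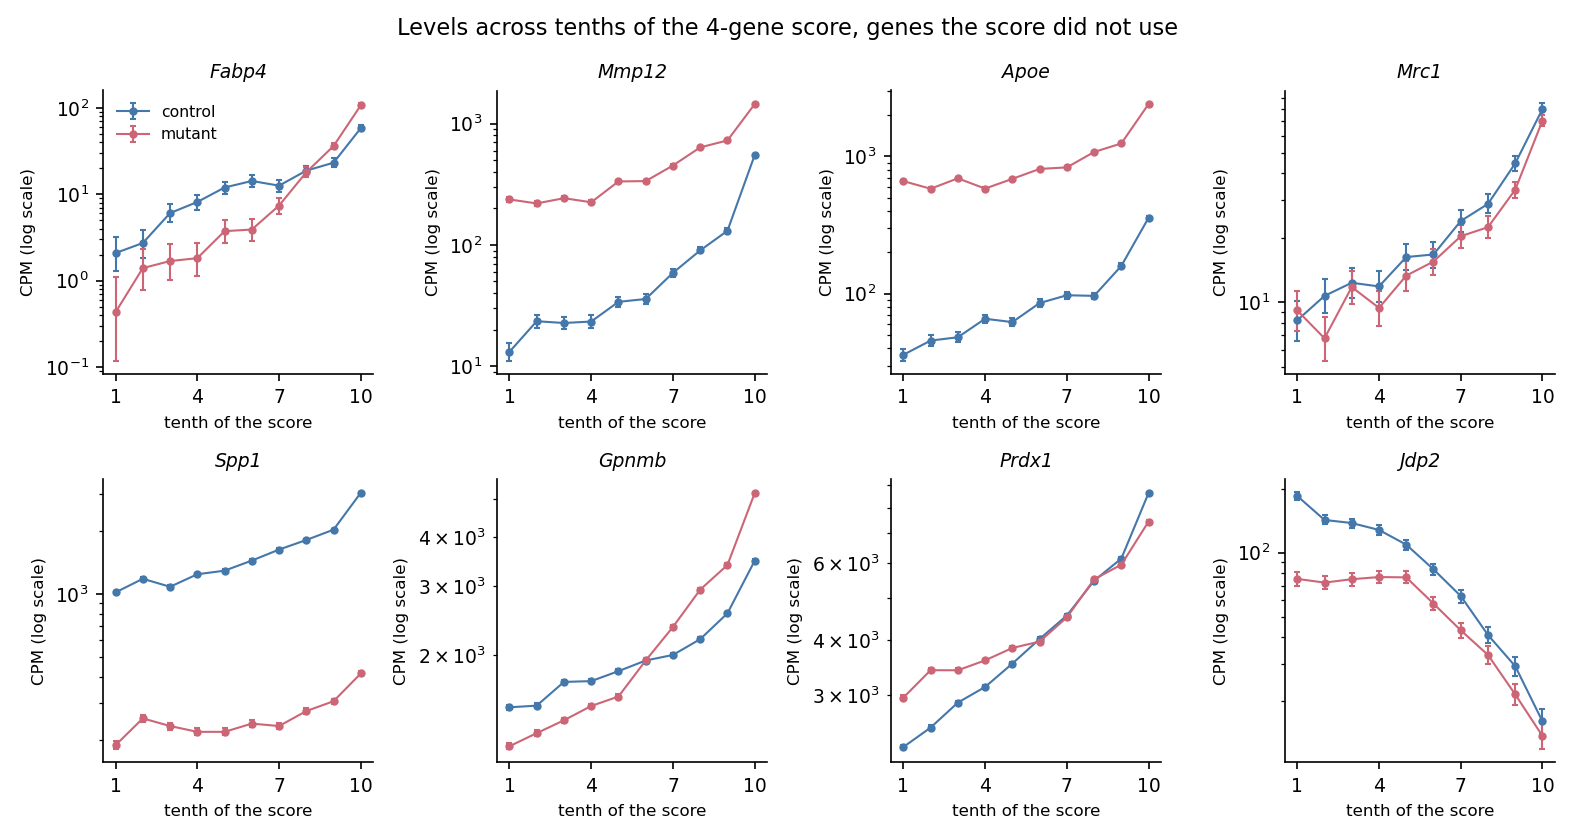
Level in CPM (vertical axes, log scale, per gene) of 8 genes that the score did not use, against the bin of the score from lowest (1) to highest (10), for the control (blue) and mutant (red) library, with 95% Poisson intervals. Fabp4 ran from 2.08 to 58.1 CPM in the control library and from 0.431 to 107 CPM in the mutant library, and Jdp2 ended at 16.1 and 13.7 CPM.

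The members were not uniform. These divisions were added after the data had been seen. Members were divided at the median share of each gene in turn, into 243 and 242 control cells and 253 and 252 mutant cells. Since the sum of 4 ranks chose them, a member low for one gene had to be high for the others. Those high for Fabp5 carried the Fabp4: 98.0 CPM against 18.7 CPM in the control library and 194 against 22.4 CPM in the mutant library. They also had more Atp6v0d2, at 41.2 against 5.39 CPM and 79.7 against 11.01 CPM, more Mmp12, at 856 against 258 CPM and 1872 against 1042 CPM, and more Apoe, at 493 against 221 CPM and 3267 against 1551 CPM. Prdx1 was at 8175 against 9135 CPM and 7332 against 7547 CPM.

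Members high for Hmox1 had more of the antioxidant gene Prdx1. Prdx1 was at 10396 against 6999 CPM in the control library and 9091 against 6118 CPM in the mutant library. Slc40a1 was at 29.5 against 11.4 CPM and 43.4 against 25.9 CPM, and Marco at 202 against 85.1 CPM and 166 against 73.1 CPM. In the control library neither was particular to Hmox1. Divided by Gas6, control members had log2 ratios of 1.42 for Slc40a1 and 1.52 for Marco, against 1.37 and 1.25 divided by Hmox1. Marco gave 1.64 there divided by Ccl6. In the mutant library the ratios of both were largest divided by Hmox1, at 0.75 for Slc40a1 and 1.18 for Marco. Divided by Gas6, Ccl6 and Fabp5, mutant members gave 0.44, -0.18 and 0.65 for Slc40a1. For Marco these were 0.57, 0.52 and 0.47. The antioxidant gene Mgst1 gave 0.49 and 0.43 divided by Hmox1 and 0.41 and 0.64 divided by Fabp5. Members high for Gas6 had more Mrc1, at 107 against 54.2 CPM and 102 against 43.1 CPM, and more C1qa, at 658 against 488 CPM and 215 against 147 CPM. Among the divisions by Fabp5, Hmox1 and Gas6, the ratios of Fabp4, Mmp12 and Atp6v0d2 were largest for Fabp5 in both libraries. That of Prdx1 was largest for Hmox1 and that of Mrc1 for Gas6, also in both. Atp6v0d2 and Mmp12 were also higher in members high for Ccl6. Atp6v0d2 gave log2 ratios of 1.77 and 2.05 divided by Ccl6, against 2.93 and 2.86 divided by Fabp5. Mmp12 gave 1.08 and 0.55 against 1.73 and 0.84, and Fabp4 0.44 and 0.08 against 2.39 and 3.11.

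The mutant members with a Fabp4 UMI at 5000 UMIs per cell, 112 of 505, were compared with the other 393 after the values above had been seen. Atp6v0d2 was at 86.8 against 32.8 CPM, Fabp7 at 142 against 63.9 CPM and Fabp5 at 5009 against 2411 CPM. Apoe was at 3652 against 2035 CPM, Spp1 at 619 against 358 CPM and Mmp12 at 2070 against 1273 CPM. Hmox1, at 581 against 551 CPM, and Gas6, at 47.2 against 48.5 CPM, differed by less than their counting intervals. The cells with Fabp4 had less Cx3cr1, at 49.7 against 109 CPM, less Ccl5, at 63.0 against 132 CPM, and less of the mitotic gene Birc5, at 43.4 against 96.6 CPM. The 1 neutrophil-like member was among them, and S100a9 and S100a8 are not compared here for that reason.

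Members of the libraries were then set side by side. Of 5158 genes with 20 CPM, 142 (2.75%) were at least 2-fold higher and 44 (0.853%) at least 2-fold lower in mutant than in control members. In the rest 278 (5.34%) and 47 (0.903%) of 5202 genes were. Of the 142 genes higher in mutant members, 141 were also at least 2-fold higher in the rest. All 142 had an interval above 0 there, as had 47.5% of all genes tested in the rest. With TMM scaling the median log2 ratio over genes in the rest moved from 0.03 to -0.09, and the counts became 124 and 56 in members and 222 and 76 in the rest. Of the rule genes, Fabp5 was 0.66 (0.63 to 0.68) higher in mutant members and Hmox1 -0.65 (-0.70 to -0.61), Ccl6 -0.42 (-0.48 to -0.36) and Gas6 -0.52 (-0.67 to -0.38) on the log2 scale. In the rest these ratios were 0.18, -0.31, -0.12 and -0.62. Fabp4 was 0.88 (0.76 to 1.01) higher in mutant members and -0.30 (-0.42 to -0.18) in the rest.

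Interferon-stimulated genes were mostly higher in mutant cells of both groups. Of 30 with 20 CPM over the members, 26 were at least 2-fold higher in mutant members, with a median of 1.56, and in the rest 30 of 32, with a median of 1.77. The interval lay above 0 for 29 of the 30 in members and all 32 in the rest, against 35.7% and 47.5% of all genes tested. Ifi44 was at 2.80 CPM in control and 38.0 CPM in mutant members, Irf7 at 93.3 and 583 CPM and Bst2 (tetherin) at 635 and 1866 CPM. Within each library the medians of members over rest were small, at 0.13 and -0.19, but leaned in opposite directions. In the control library the interval lay above 0 for 11 of 21 genes and below 0 for 3, against 26.8% and 48.1% of all genes tested. In the mutant library it lay above 0 for 5 of 34 genes and below 0 for 23, against 24.3% and 44.5%. Ms4a4c, a membrane protein, was at 7.18 CPM in control and 102 CPM in mutant members, Ly6a (Sca-1) at 42.0 and 514 CPM, and Entpd1, the ATP-degrading CD39, at 5.37 and 46.8 CPM. S100a9 gave the largest ratio of mutant over control members, 6.14, but 1662 of its 1732 UMIs in mutant members (96.0%) were from the neutrophil-like cell. Without that cell S100a9 was at 4.97 CPM in mutant members.

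Of the 44 genes at least 2-fold lower in mutant members, 27 were also at least 2-fold lower in the rest of the same libraries, and 43 had an interval below 0 there, as had 40.4% of all genes tested in the rest. Emp2, a membrane protein, was at 47.8 CPM in control and 3.32 CPM in mutant members, a log2 ratio of -3.85 in members and -4.37 in the rest. Fxyd2, a regulator of the sodium pump, gave -3.47 and -3.87, the deubiquitinase gene Uchl1 -2.62 and -2.60, and the tubulin gene Tubb6 -2.61 and -2.14. Spp1 gave -2.87 (-2.91 to -2.83) in members and -2.55 in the rest. Lyz2, at 22200 CPM in control and 8901 CPM in mutant members, gave -1.32 and -1.14, and the Cre sits in this gene, whose part in the difference was not tested. Apoe was higher in mutant members by 2.75 and in the rest by 3.36, and the lysosomal protease gene Lgmn by 1.66 and 2.00.

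The ratio of members over rest was then set side by side between the libraries. For Mmp12 the ratio of members over rest was lower by -1.62 (-1.67 to -1.56) in the mutant library, where mutant over control was 1.39 in members and 3.01 in the rest, and with Fabp5 left out of the score it was lower by -0.95. Ccl5, a T cell and monocyte chemokine, was at 69.0 against 36.7 CPM in the control library and 117 against 177 CPM in the mutant library, and Ccl12, a monocyte chemokine, at 87.2 against 36.6 CPM and 20.01 against 26.6 CPM. Gpr84, a receptor for medium-chain fatty acids, was at 31.6 against 24 CPM and 66.4 against 124 CPM. At the other end, the integrin gene Itgb7 had a ratio higher by 0.88 (0.69 to 1.06) in the mutant library, the phosphate exporter Xpr1 by 0.71, the ubiquitin ligase Wwp1 by 0.69 and the noncoding RNA Gas5 by 0.66. Wwp1 and Gas5 overlap genes on the other strand. With 1 library per genotype none of these differences was tested across samples.

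**Figure D5:**
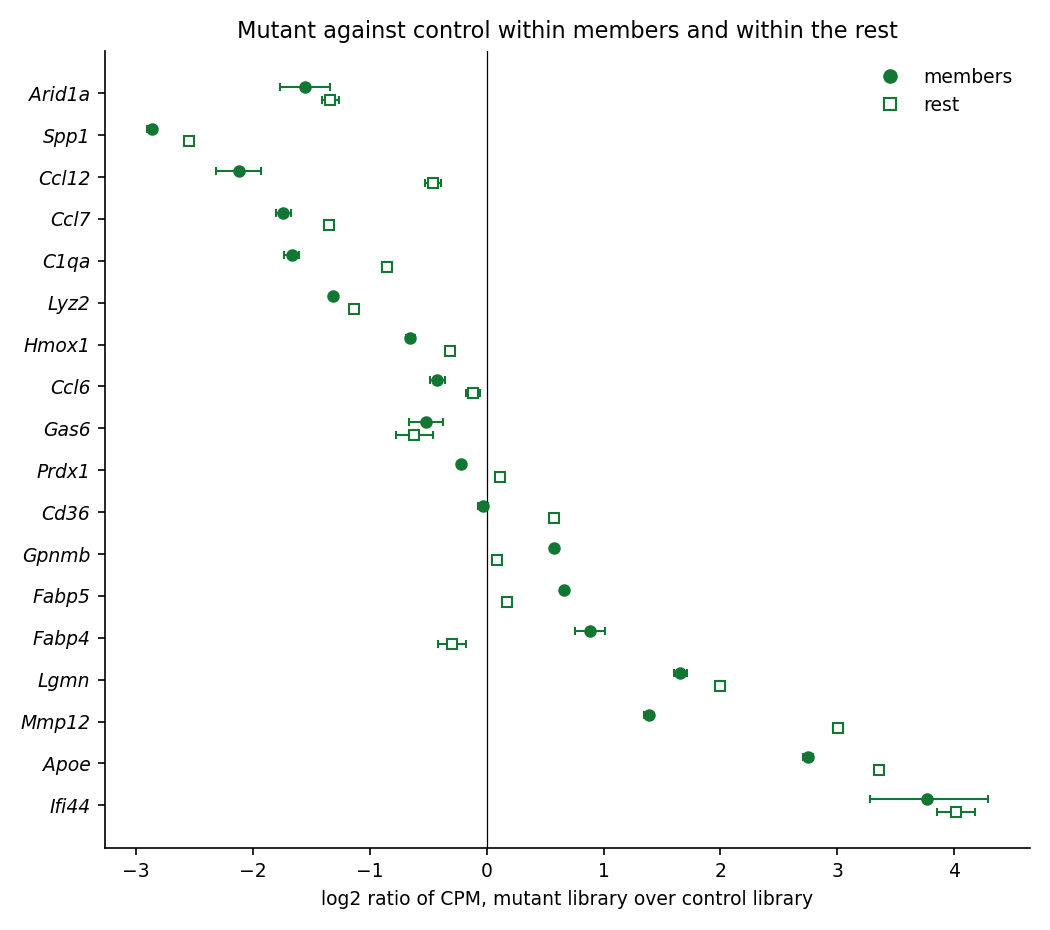
Log2 ratio of CPM of the mutant over the control library for 18 genes, within members (filled circles) and within the rest (open squares), with 95% intervals for counting error. Fabp4 lies at 0.88 in members and -0.30 in the rest, Spp1 at -2.87 and -2.55, and Apoe at 2.75 and 3.36.

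Because the rule takes 10% of each library, it cannot show whether the population was larger in either. With ranks over both libraries and a common cutoff, 557 control cells (11.5%, 10.6% to 12.4%) and 433 mutant cells (8.57%, 7.81% to 9.37%) were in the top 10%. At 5000 UMIs per cell these were 532 (11%) and 458 (9.06%). The denominators are the eligible cells, from which the OC filter had removed unequal shares. At full depth the common cutoff kept 485 (100%) of the control members and 433 (85.7%) of the mutant members. At 5000 UMIs per cell it kept 339 (69.9%) and 338 (66.9%). Thinning also drops UMIs of sparse genes at random, and a Gas6 UMI remained in 33.0% of control members in place of 79.2%. Whether depth or this loss changed the membership was not tested. Members were also compared with the top 10% by other genes of the same cells. Of the members, 145 (29.9%, 25.9% to 34.2%) of the control library and 102 (20.2%, 16.8% to 24%) of the mutant library were in the top 10% by C1qa, C1qb, C1qc and Ccl7, against the 10% that the size of the groups sets. In those cells Fabp4 was 0.77 (0.59 to 0.95) and 0.61 (0.45 to 0.77) higher than in their own rest, and Spp1 0.79 and -0.04. By Acod1, Clec4e, Il1b and Tnf, 63 (13.0%, 10.1% to 16.3%) and 72 (14.3%, 11.3% to 17.6%) were shared, and Fabp4 was 0.50 and 0.03 higher there. Fabp4 was thus 2.34 and 3.52 higher in members and less than 1 higher in both of the other groups on the log2 scale. With Fabp5 left out of the score the values in members were 1.73 and 2.65. The C1q and Ccl7 group was also higher in the genes that chose the members. Its log2 ratios were 1.35 and 0.52 for Hmox1, 1.30 and 0.22 for Ccl6, 1.97 and 1.27 for Gas6, and 0.38 and 0.30 for Fabp5.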

How the data were processed

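Droplet 3′ scRNA-Seq (Chromium Single Cell 3′ v3.1) was performed on 1 control and 1 mutant library. The authors deposited unnormalized UMI counts for each barcode, and the file headers name Cell Ranger 6.1.0. GRCm39 is the genome of the study, and a doublet filter and the use of strand were not stated. The methods name an aggregation step, and whether these counts precede it was not stated. The table listed 32544 genes, of which 31977 identifiers were placed with GENCODE M39. Clec7a and Ddit3 were not analysed here. Some genes of the lists are not reported here.

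Groups came from the genotype labels. UMIs were summed over members and over the rest of each library and scaled to CPM. Genes with at least 20 CPM over the groups compared entered counts of 2-fold differences. A gene below 20 CPM in the rest could thus enter through its level in members. Log2 ratios have exact conditional intervals of a pair of Poisson counts, and shares exact binomial (Clopper-Pearson) intervals at 95%. No test across samples was possible with 1 library per group. The interval methods were tested on simulated data. Named genes are the rule genes, Fabp4 and Spp1, the 10 highest and 5 lowest ratios of members over rest per library, the 5 highest and 5 lowest of mutant over control members and of the difference between libraries, and listed genes. The members and lists were chosen with earlier results of these data known. Analyses used Python 3.11.15, numpy 2.4.6, pandas 2.3.3, scipy 1.17.1 and matplotlib 3.10.9, and TMM factors came from edgeR 4.0.16 in R 4.3.3. Alternatives varied scaling, filters, the score, depth and the cells left out.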

Additional observations from a re-analysis of the deposited data

Results flagged for a closer look

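For 9 genes the ratio of members over the rest had opposite signs in the control and mutant libraries, with both intervals excluding 0 and both log2 ratios at least 0.3 in size. The difference between the libraries was not tested, and opposite signs with both intervals excluding 0 were found for 155 of the 4806 genes measured in both.

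Of the 9, 8 were higher in control members and lower in mutant members. The log2 ratios were 1.25 and -0.41 for the chemokine gene Ccl12, 0.91 and -0.60 for Ccl5, and 0.42 and -0.41 for Cxcl14. The fatty acid receptor gene Gpr84 gave 0.39 and -0.90, the arginine-synthesis gene Ass1 0.31 and -0.64, properdin (Cfp) 0.40 and -0.34, the adaptor gene Samsn1 0.37 and -0.33, and the cytoskeletal gene Pdlim7 0.31 and -0.56. The integrin gene Itgb7 went the other way, at -0.57 and 0.30. For Ccl5 the level in the rest was 36.7 CPM in the control library and 177 CPM in the mutant library, and for Gpr84 24 and 124 CPM, while members were at 69.0 and 117 CPM and at 31.6 and 66.4 CPM. The difference between the libraries moved from -1.66 to -0.70 for Ccl12 with the score on thinned cells, and from -1.51 to -0.68 for Ccl5 without Fabp5 in the score. For Itgb7 members were at 37.3 and 37.7 CPM and the rest at 55.5 and 30.6 CPM.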

How the results depend on the processing

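No paired analysis was possible because there was 1 library per genotype and the labels give no shared replicate numbers, and no library could be left out. Of 214 recomputed values of the main counts, medians and shares, 189 stayed within their limits and none changed direction. Without a filter on low genes, 1384 (control) and 953 (mutant) genes were 2-fold higher in members, and 897 higher and 782 lower in mutant members. At 50 CPM these counts were 43, 15, 87 and 19. With the score on thinned cells 26 genes were 2-fold higher in mutant members than in their rest. Fabp4 in the control library moved from 2.34 to 2.51 with equal weight per cell, 2.63 for the top 5%, 2.05 for the top 20% and 1.73 without Fabp5 in the score. In the mutant library it moved from 3.52 to 3.40 with equal weight, 3.80 for the top 20%, 3.65 with the thinned score, 3.40 with members chosen on other UMIs, and 3.37, 3.73, 3.40 and 2.65 without Hmox1, Ccl6, Gas6 and Fabp5. The lipid handling median of the control library was 0.33 without mitochondrial and ribosomal genes in the totals and 0.58 at 50 CPM, and that of NRF2 targets 0.45 and, without Hmox1 in the score, 0.43. Of 2153 values of single genes and other lists, 603 moved by more than their interval and 7 changed direction. With neutrophil-like and stromal-like cells left out, S100a9 was 0.68 and Ngp 1.22 in control members and Camp 1.13 in mutant members, and the difference between libraries for S100a9 was -2.01. That difference was -1.06 without Gas6 and -1.17 without Fabp5 in the score. For Cxcl10 the difference between libraries was 0.0323 for the top 5%. Genes near 20 CPM, such as Fabp4 in the control library, rest on few UMIs per cell, and doublet removal, a higher minimum of UMIs and a gate without Mki67 moved none of the main values. Causes were not tested, beyond the changes each alternative makes by construction.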

Other observations

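MHC class II genes were low in members of both libraries. H2-Aa was at 0.0756 CPM in control members against 1.86 CPM in the rest and at 0.849 CPM in mutant members against 20.3 CPM. H2-Eb1 was at 0.227 against 1.85 CPM and 1.34 against 20.5 CPM, and Cd74, the invariant chain, at 11.9 against 22.3 CPM and 17.5 against 67.9 CPM. H2-DMb1, which helps load peptides, was instead at 11.8 against 8.30 CPM and 23.3 against 14.8 CPM. The monocyte gene Ly6c2 was at 4.23 against 3.30 CPM in the control library and 9.90 against 25.1 CPM in the mutant library. Plac8 was at 2.49 against 2.16 CPM in the control library, where all 33 UMIs of members were in 1 cell. In mutant members it was at 14.4 CPM against 46.6 CPM, with 143 of 203 UMIs in 1 cell, and at 4.26 against 33.8 CPM without neutrophil-like cells.

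Fabp3, a further fatty acid carrier best known from muscle, was at 8.24 CPM in control members against 2.31 CPM and at 4.10 CPM in mutant members against 0.758 CPM. Members held 30.1% and 41.4% of its UMIs among eligible cells. It was below 20 CPM in both libraries and enters no count above.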
